A study of Mus musculus with 17 samples.

Results

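The cytokines described here are 10 genes of inflammation and its regulation in fat: Tnf, Il6, Il1b, Il1rn, Il10, Il15, Il18, Il33, Tgfb1 and Mif. Members were taken as every non-control probe that the array design names by one of these symbols or an older name. All 10 genes, of 27573 on the array, were found, with 12 of its 41174 probes and 2 probes each for Il1rn and Il15. The genes were listed by function, not by measured values.

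RNA came from epididymal white adipose tissue, a visceral fat pad, and the mice were adult C57BL/6J males. All mice ate a purified high-fat diet, with 30% of energy from fat, for 13 weeks, and only the carbohydrate differed: of low glycemic index (LGI, 8 mice) or high glycemic index (HGI, 9 mice), which grades carbohydrates by the rise of blood glucose they cause. Each mouse had its own Agilent array, on which its Cy5-labelled RNA competed with a common RNA pool in Cy3. A value below is the log2 ratio of a mouse to that pool, so that 1 on this scale is a doubling, and every difference between the diets is given as HGI minus LGI. No mice on a low-fat diet were analysed here, so the values say nothing of the high-fat diet itself.

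Fat tissue makes cytokines mainly in macrophages and other stromal cells, and their balance is followed closely in obesity research. Tumour necrosis factor, interleukin-6 and interleukin-1 beta drive inflammation and impair insulin action in adipocytes. The interleukin-1 receptor antagonist, interleukin-10 and TGF-beta restrain or redirect it. Interleukin-33, released by stromal cells, maintains regulatory T cells and type 2 innate lymphoid cells of visceral fat. Whole tissue was measured, so fewer cells of a type and less RNA per cell cannot be told apart.

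The share of spots with a Cy5 signal well above background was 54.2% to 66.7% per array, and 45.5% of all probes had such a signal on all 17 arrays. The arrays HGI 9 and HGI 10 differed from the rest: the log2 ratios of these 2 arrays had a correlation of 0.79, those of either with the other 15 ranged from -0.03 to 0.16, and among the 15 they ranged from 0.34 to 0.81. The mean log2 ratio of 8 seminal vesicle genes was 1.70 and 1.66 on these 2 arrays and -4.23 to -3.92 on all others. Results are therefore given with 17 arrays and, without HGI 9 and HGI 10, with 15. The mean log2 ratio of 6 epididymis genes was negative on every array, -3.67 to -3.13 in LGI and -3.70 to -2.71 in HGI. The pool can thus not be read as the average of these 17 mice. The labels number the samples as replicates and say no more of each animal, so a p-value here reflects only how these samples vary. All 10 adipocyte markers listed, Adipoq, Plin1 and Fabp4 among them, were detected well enough to be tested, as were all 14 macrophage markers.

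At an adjusted p under 0.05 no member was called, and neither was any of the 25514 probes tested (0% in either direction, with 17 or with 15 arrays), by limma with Benjamini-Hochberg adjustment over all of them. At an unadjusted p under 0.05, 1951 probes lay below the threshold with 17 arrays (7.65%) and 1902 with 15 (7.45%), and array weights or the Cy5 channel alone called 1 probe each. Of the 12 member probes, 8 passed the filter for testing, a signal well above background on at least 8 arrays, as did 62% of all probes. They cover 7 genes: Tnf, Il10, Il15, Il18, Il33, Tgfb1 and Mif. The 4 others, for Il6, Il1b and Il1rn, were too dim, and for these the number of arrays with a signal is given in place of a level.

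The genes at the detection limit included the classical inflammatory cytokines Tnf, Il6 and Il1b, and Il1rn, whose product opposes Il1b. Their promoters are shown in stretches of 60 bases from the 250 bases before the gene's start, as background to how these genes are built, since the arrays do not measure promoters. Sequences are from RefSeq, build GRCm38.p6, written 5′ to 3′ on the gene's strand. Capitals mark a match to the TATA box (TATAAA), to the AP-1 element (TGANTCA) or to the NF-kB consensus. Both strands were searched, and the marked matches do not overlap. The coordinates are chr17:35202008-35202067 on the minus strand for Tnf, chr5:30013045-30013104 on the plus strand for Il6, chr2:129371140-129371199 on the minus strand for Il1b and chr2:24336693-24336752 on the plus strand for Il1rn.
Tnf, TATA box: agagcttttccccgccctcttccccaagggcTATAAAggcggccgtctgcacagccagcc
Il6, NF-kB consensus: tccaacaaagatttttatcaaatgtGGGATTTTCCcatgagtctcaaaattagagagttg
Il1b, TATA box: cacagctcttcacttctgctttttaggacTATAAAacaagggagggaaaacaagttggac
Il1rn, AP-1 element: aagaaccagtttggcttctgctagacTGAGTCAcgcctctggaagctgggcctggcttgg

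The table of promoters held 8 of the 10 member genes, with 11 starts. Of 32851 promoters of all genes, 12.4% held the TATA box, 6.75% the AP-1 element and 7.25% the NF-kB consensus in the same 250 bases. The Tnf match began 29 bases and the Il1b match 31 bases before the start. In Il6 the NF-kB match began 44 bases before the start. In Il1rn the AP-1 match began 141 bases before the first of 3 listed starts, and the other 2 starts held none of these motifs. The Mif window held none of the 3 but did hold 1 GC box (GGGCGG), which 32.7% of all promoters hold. A match of letters is a description and says nothing of a factor's binding.

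Il6 was not well above background on any array, in 0 of 8 LGI and 0 of 9 HGI mice, as were 18.1% of all probes. No level or direction can be read for Il6. Il1b had a signal well above background in 3 of 8 LGI mice (LGI 5, 7 and 9) and in 2 of 9 HGI mice (HGI 3 and 4). Fisher's exact test did not separate these shares (two-sided p = 0.620). Tnf, the cytokine first tied to insulin resistance in fat, was well above background in 5 of 8 LGI and 5 of 9 HGI mice.

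Il1rn encodes the receptor antagonist that blocks interleukin-1 signalling, and 1 of its 2 probes had the widest gap in detection among the members. Probe A_52_P431159 was well above background in 0 of 8 LGI mice and in 6 of 9 HGI mice (HGI 1, 2, 3, 4, 9 and 10). The two-sided Fisher exact p was 0.00905, but adjusted over the 15006 probes detected on some but not all arrays it was 1, which was also the smallest adjusted p of any probe. With 8 against 9 arrays the exact p cannot get small enough for 1 probe alone to pass this adjustment. No conclusion is therefore drawn from the adjusted value. Of those 15006 probes, 0.653% had an unadjusted Fisher p under 0.05 with detection more often in HGI and 0.4% with detection more often in LGI. 5 probes were detected in no LGI mouse and in at least 6 HGI mice, which is 0.0121% of all 41174 probes and 0.0333% of those detected on some but not all arrays. Fisher tests were possible for 7 member probes, and this was the only one of them with an unadjusted p under 0.05.

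Without HGI 9 and HGI 10 the probe was detected in 0 of 8 LGI and 4 of 7 HGI mice (exact p = 0.0256). Among the 8 arrays scanned first, 0 of 4 LGI and 3 of 4 HGI mice had a signal (exact p = 0.143), and among the 9 scanned later 0 of 4 and 3 of 5 (exact p = 0.167). As no LGI array had a signal, no subset could give the opposite direction, so the shared direction adds no support. Without LGI 9 as well as HGI 9 and HGI 10, the exact p was 0.0699.

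On the log2 Cy5 scale the HGI mean of probe A_52_P431159 was 6.52, with 3 of 9 arrays not well above background, and the LGI mean was 6.33, with no array well above background, so no fold is given. The log2 ratios of this probe were lowest -0.15, median -0.02 and highest 0.48 in LGI and lowest -0.21, median 0.27 and highest 0.49 in HGI. The groups overlapped over nearly the whole range: the highest LGI ratio, in LGI 7, lay just under the highest in HGI, while the lowest ratio of all was that of HGI 7, followed by LGI 9.

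The second Il1rn probe, A_51_P307166, did not show the gap. It was well above background in 1 of 8 LGI mice (LGI 7) and 0 of 9 HGI mice (exact p = 0.471). Its mean ratio was -0.06 ± 0.17 in LGI (SD, n = 8) and -0.06 ± 0.25 in HGI (SD, n = 9). The 2 Il1rn probes thus disagreed on detection by diet. Their ratios nevertheless went together across mice, at r = 0.86 over 15 arrays (permutation p = 2e-05) and 0.82 over 17 (permutation p = 6e-05). Both probes were close to background.

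**Figure D1:**
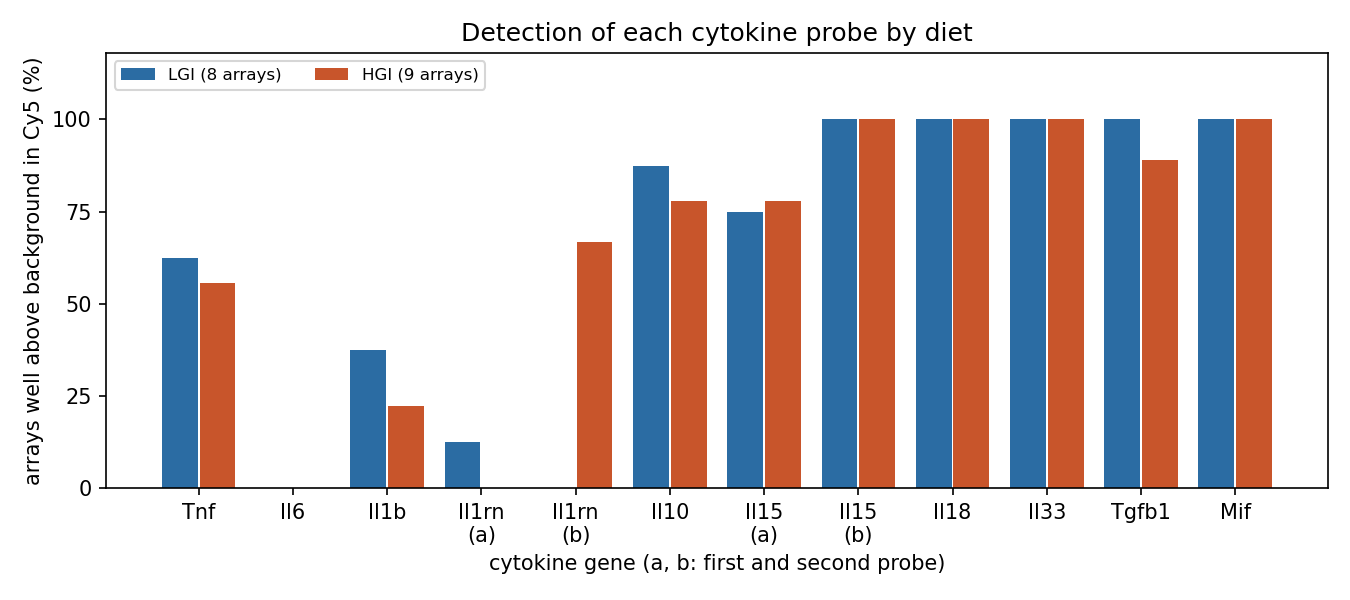
Percent of arrays on which each cytokine probe was well above background in Cy5 (vertical axis), with LGI bars (8 arrays) beside HGI bars (9 arrays). Il1rn (b) is probe A_52_P431159, with 0 of 8 LGI and 6 of 9 HGI arrays, and Il1rn (a) is A_51_P307166, with 1 of 8 and 0 of 9. Il15 (b), Il18, Il33 and Mif reach 100% in both diets, and Il6 has no bar.

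Among the tested members, the inflammatory Tnf and the regulatory Il10 had differences close to 0. Tnf log2 ratios were lowest -0.12, median 0.20 and highest 0.44 in LGI and lowest 0.0033, median 0.10 and highest 0.43 in HGI. The diets overlapped in their upper part, with LGI 2 and HGI 4 highest, while LGI 5 and LGI 8 lay below every HGI mouse. The Tnf difference was 0.01 ± 0.09 (SE), with a 95% interval of -0.17 to 0.19 and an adjusted p of 0.984 by limma. With 15 arrays it was -0.03, so it had no stable sign. For Tnf the Cy3 signal of the pool was well above background only on the arrays LGI 5, LGI 9, HGI 2 and HGI 3. Most Tnf ratios thus lay near the floor, and a difference near 0 does not show that Tnf was unchanged.

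Il10, which damps macrophage activation, had ratios of lowest -0.23, median -0.11 and highest 0.19 in LGI and lowest -0.40, median -0.10 and highest 0.14 in HGI. It was well above background in 7 of 8 LGI and 7 of 9 HGI mice. The groups overlapped, with LGI 4 above and HGI 1 below all other mice. The difference was -0.0028 ± 0.07 (SE; 95% interval -0.16 to 0.15; adjusted p = 0.997, limma). In percent, on the scale compressed by the offset, the intervals ran from -10.9% to 14.3% for Tnf and from -10.2% to 10.9% for Il10.

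Il15 supports natural killer cells and memory T cells, and in the tested set it was the member with the smallest p. Probe A_52_P383066, designed on a record (AB022307) of a shorter Il15 isoform, was well above background on all arrays. Its ratios were lowest -0.09, median -0.0016 and highest 0.30 in LGI and lowest 0.07, median 0.26 and highest 0.48 in HGI. All 9 HGI mice lay above the LGI median and 4 of them above the highest LGI mouse, though LGI 2, 7 and 8 reached into the HGI range. The difference was 0.22 ± 0.07 (SE), that is 16.1% higher in HGI with a 95% interval of 4.75% to 28.7%. By limma its unadjusted p was 0.00655 and its adjusted p 0.559, so it was not called, and 3.62% of all tested probes were higher in HGI at an unadjusted p under 0.05.

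The highest 2 values of this Il15 probe belonged to HGI 9 and HGI 10. With 15 arrays the difference was 0.16 ± 0.07 (SE; unadjusted p = 0.0307, adjusted p = 0.618, limma), and all 7 HGI mice still lay above the LGI median. It was 0.17 among the arrays scanned first and 0.26 among those scanned later.

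The second Il15 probe, A_52_P15461, was weaker, with a signal in 6 of 8 LGI and 7 of 9 HGI mice. Its ratios were lowest -0.49, median -0.18 and highest -0.02 in LGI and lowest -0.28, median -0.07 and highest 0.32 in HGI. 4 of 9 HGI mice exceeded the highest LGI mouse, 2 of them being HGI 9 and HGI 10. The difference was 0.17 ± 0.09 (SE; adjusted p = 0.671, limma) with 17 arrays and 0.09 ± 0.08 (SE; adjusted p = 0.860) with 15. Both probes had the same sign. Their ratios correlated at r = 0.43 over 15 arrays (permutation p = 0.110; rho = 0.41, permutation p = 0.128) and at r = 0.64 over 17 (permutation p = 0.00534; rho = 0.59, permutation p = 0.0137).

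Il18, an interleukin-1 family cytokine activated by the inflammasome, had the smallest spread in LGI of the tested members (SD 0.09, n = 8). Its ratios were lowest 0.09, median 0.25 and highest 0.40 in LGI and lowest -0.18, median 0.13 and highest 0.25 in HGI. None of the 9 HGI mice reached the LGI median, and HGI 2 and HGI 9 lay below every LGI mouse. The other 7 HGI mice lay within the LGI range. The difference was -0.16 ± 0.07 (SE), or -10.6% with a 95% interval of -18.7% to -1.71%. By limma the unadjusted p was 0.0228 and the adjusted p 0.597, and 4.03% of all tested probes were lower in HGI at an unadjusted p under 0.05.

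With 15 arrays the Il18 difference was -0.14 ± 0.07 (SE; unadjusted p = 0.0580, adjusted p = 0.689, limma). It was -0.18 among the first and -0.14 among the later scanned arrays. Of the adipocyte markers, 9 of 10 had a lower mean in HGI and none was called (smallest adjusted p = 0.602, limma). At an unadjusted p under 0.05, 4 of 10 were lower with 17 arrays and 1 of 10 with 15, against 4.03% and 2.75% of all tested probes. Their median difference was -0.18, with mean log2 ratios of -0.26 to 0.15 in LGI and -0.31 to -0.04 in HGI. Their part in the Il18 and Il15 values was not tested.

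Il33 had ratios of lowest -0.0087, median 0.13 and highest 0.47 in LGI and lowest -0.30, median -0.02 and highest 0.38 in HGI. 5 of 9 HGI mice lay below the lowest LGI mouse, but HGI 1, at 0.38, lay above all LGI mice except LGI 9. The difference was -0.18 ± 0.09 (SE), or -11.5% with a 95% interval of -21.8% to 0.236%. Its unadjusted p was 0.0541 and its adjusted p 0.659 by limma, and with 15 arrays the difference was -0.15 ± 0.09 (SE, adjusted p = 0.762). It was -0.20 among the arrays scanned first and -0.13 among those scanned later. Within LGI, every mouse scanned first lay above every mouse scanned later.

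Mesothelial cells, which cover the fat pad, are among the sources of Il33 in visceral fat. All 7 mesothelial markers tested were lower in HGI, with a median difference of -0.21 (-0.24 with 15 arrays), and 4 of 7 had an unadjusted p under 0.05, against 4.03% of all tested probes. None passed after adjustment. The largest was Lrrn4, at -0.45 ± 0.13 (SE; adjusted p = 0.559, limma). The mean log2 ratio of these markers ran from -0.05 to 0.51 in LGI and from -0.36 to 0.40 in HGI. The fibroblast and progenitor markers, of other stromal cells, went mostly the other way. Of these, 7 of 9 were higher and 2 lower in HGI, with a median difference of 0.05 (0.13 with 15 arrays). With 15 arrays 6 were higher and 3 lower, and 2 were higher at an unadjusted p under 0.05, against 4.71% of all tested probes. None was called after adjustment (limma). Each marker of both lists was detected on enough arrays to be tested, and the part of either list in the Il33 difference was not tested.

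Tgfb1 encodes the main TGF-beta of tissue repair and fibrosis. Its ratios were lowest -0.38, median -0.19 and highest -0.0038 in LGI and lowest -0.57, median -0.22 and highest 0.18 in HGI. The extremes of HGI were HGI 10, the only array on which Tgfb1 was not well above background, and HGI 4, and the other 7 lay within the LGI range. The difference was -0.03 ± 0.08 (SE; adjusted p = 0.959, limma) with 17 arrays and 0.03 ± 0.08 (SE; adjusted p = 0.957) with 15, so its sign depended on the 2 arrays.

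Mif, macrophage migration inhibitory factor, is made by adipocytes as well as by immune cells. Its ratios were lowest -0.27, median -0.06 and highest 0.70 in LGI and lowest -0.35, median -0.19 and highest 0.22 in HGI. LGI 9 stood alone at 0.70, with the next LGI mouse at 0.10, and the 2 highest HGI values were those of HGI 9 and HGI 10. The difference was -0.14 ± 0.11 (SE; unadjusted p = 0.204, adjusted p = 0.790, limma) with 17 arrays.

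Without HGI 9 and HGI 10 the Mif difference was -0.23 ± 0.10 (SE; unadjusted p = 0.0402, adjusted p = 0.642, limma), and none of the 7 HGI mice reached the LGI median. In that comparison 2.75% of all tested probes were lower in HGI at an unadjusted p under 0.05, and 4.71% higher. Without LGI 9 in addition, the difference was -0.13. Leaving out LGI 9 alone gave -0.05. The size of the Mif difference thus rested on 3 arrays, while its sign was negative throughout.

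**Figure D2:**
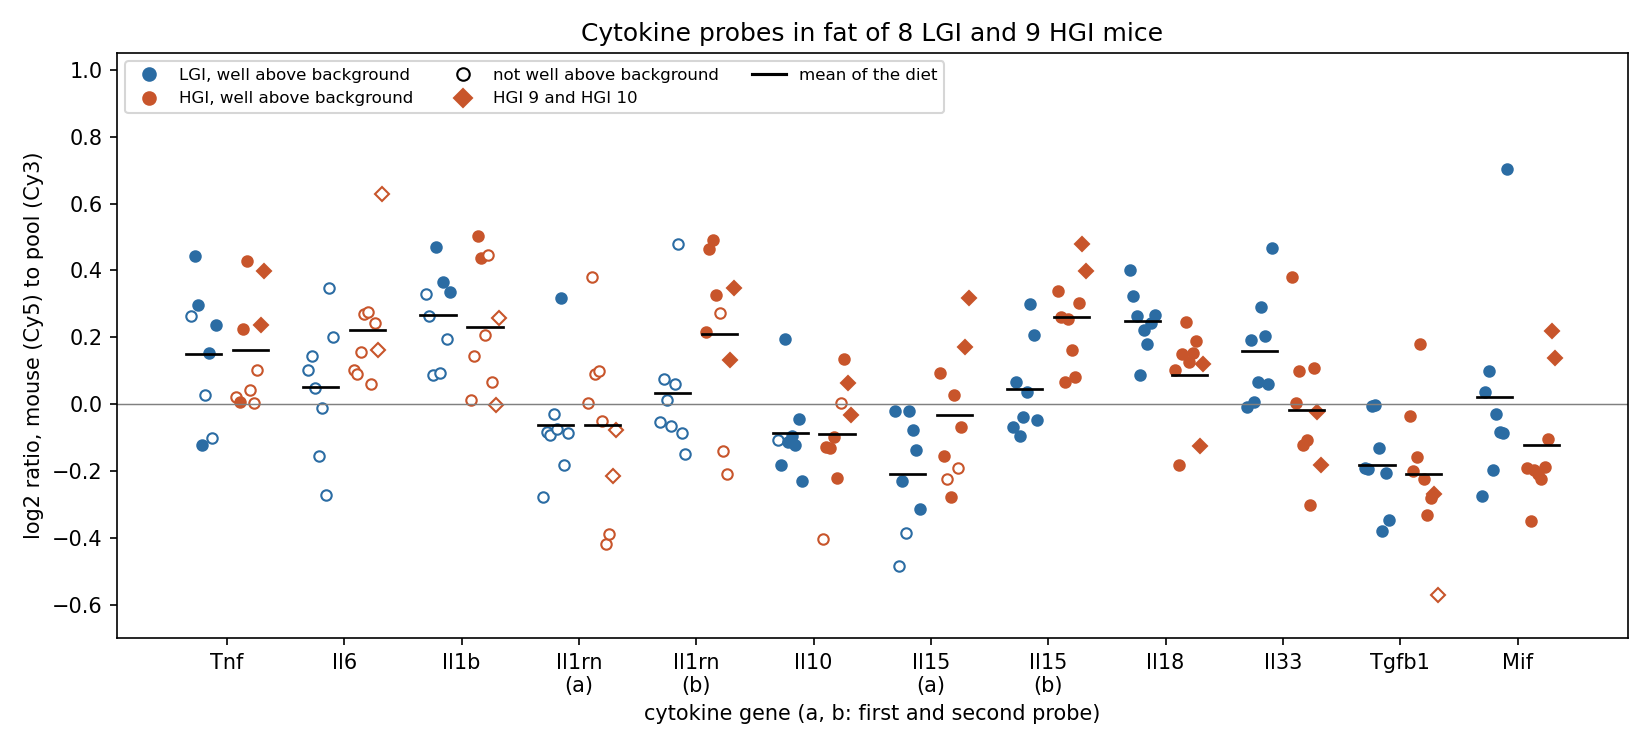
Log2 ratio of each mouse to the pool (vertical axis) for the 12 cytokine probes, LGI in blue and HGI in orange, with the mean of each diet as a bar; open points are not well above background and diamonds are HGI 9 and HGI 10. All HGI points of Il15 (b), probe A_52_P383066, lie above the LGI median of -0.0016, none of the Il18 points in HGI exceeds 0.25, and LGI 9 stands alone at 0.70 for Mif.

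In all, 2 of 7 tested genes had a higher and 5 a lower mean in HGI with 17 arrays, with a median difference of -0.03. Over all 18133 tested genes, 1 probe each, 9534 were higher and 8599 lower, with a median of 0.0058. At an unadjusted p under 0.05, 2 of 8 member probes lay below the threshold, against 7.65% of all probes, and with 15 arrays again 2 of 8, against 7.45%. Only the Il15 probe A_52_P383066 was among them both times. The cytokines were not compared as a set by a test, and the 95% intervals of all tested members with 17 arrays lay between -0.37 and 0.36 on the log2 scale.

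The receptors that bind these cytokines, together with the soluble Il18bp, made a list of 23 genes, of which 20 were tested. 8 were higher and 12 lower in HGI, none was called after adjustment, and 1 of 20 had an unadjusted p under 0.05, against 7.77% of all tested genes. That was Il1rl1, which encodes ST2, the receptor of Il33, at 0.27 ± 0.12 (SE; unadjusted p = 0.0298, adjusted p = 0.611, limma). With 15 arrays it was 0.11 (adjusted p = 0.790). Il18bp, the soluble inhibitor of Il18, was 0.28 ± 0.19 (SE; adjusted p = 0.755) with 17 arrays and -0.01 with 15.

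The receptors of Tnf, Tnfrsf1a and Tnfrsf1b, differed by -0.05 and -0.06, and those of Il6, Il6ra and Il6st, by 0.01 and -0.12. Il15ra, which presents Il15 to neighbouring cells, was -0.11 ± 0.07 (SE; adjusted p = 0.761, limma), the opposite sign to Il15. Of the Tgfb1 receptors, Tgfbr1, Tgfbr2 and Tgfbr3 all lay between -0.04 and 0.01.

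Among Mif receptors Cd74, Cd44 and Cxcr4 were 0.08, 0.13 and 0.14, all with the opposite sign to Mif. Cd44 was 0.25 ± 0.10 (SE; unadjusted p = 0.0242, adjusted p = 0.595, limma) with 15 arrays, where its other probes were 0.29 and -0.06. The decoy receptor Il1r2 and the Il18 co-receptor Il18rap were well above background on 0 arrays, and Cxcr2 on too few arrays to be tested.

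**Figure D3:**
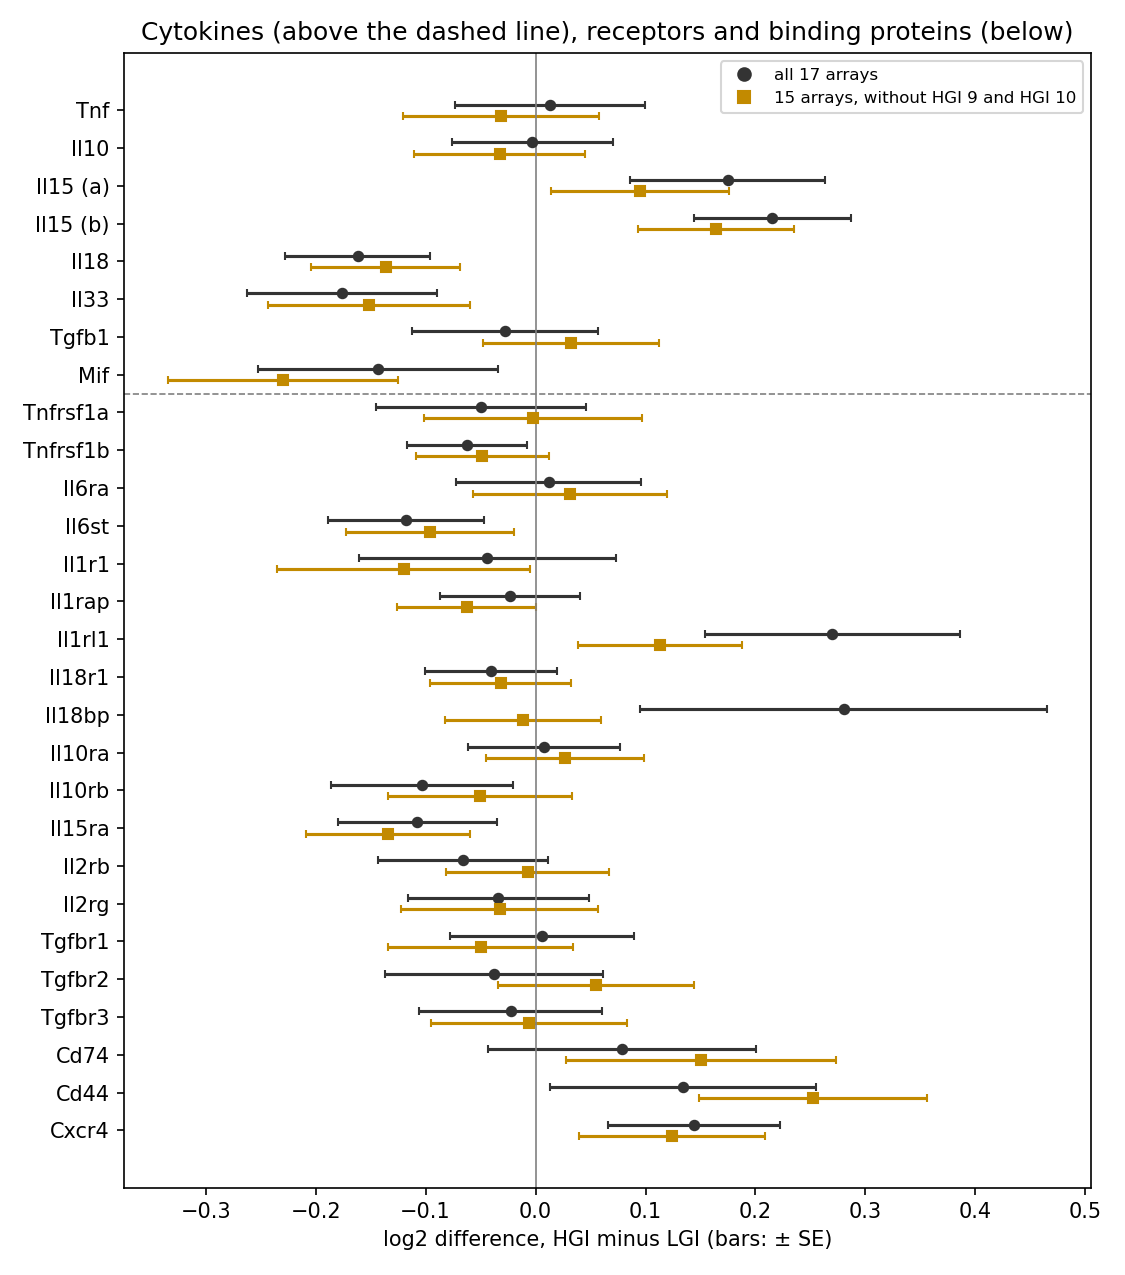
Difference HGI minus LGI on the log2 scale with its SE (horizontal axis) for the 8 tested cytokine probes, above the dashed line, and 20 receptors and binding proteins, below it; circles are all 17 arrays and squares 15 arrays. Il1rl1 and Il18bp move towards 0, from 0.27 to 0.11 and from 0.28 to -0.01, once HGI 9 and HGI 10 are left out, and Mif moves from -0.14 to -0.23.

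The signalling genes around the cytokines gave no called gene either. Over 7 pathway lists, 100 of 126 genes were tested, 3 were higher and 1 lower in HGI at an unadjusted p under 0.05, or 4% against 7.77% of all tested genes. Each gene was counted by its brightest tested probe. A dimmer probe of Irak3 was 0.35 (unadjusted p = 0.00845, adjusted p = 0.559, limma) and 1 of Lifr 0.27 (unadjusted p = 0.0107, adjusted p = 0.567). The brightest probes of these genes were -0.02 and -0.15. In the TNF and NF-kB list the 2 lowest p with 17 arrays were those of Ripk1, a kinase at the TNF receptor, and Birc3, an NF-kB target that restrains cell death. Ripk1 was -0.24 ± 0.10 (SE; adjusted p = 0.598, limma) and Birc3 0.22 ± 0.10 (SE; adjusted p = 0.649), and with 15 arrays they were -0.14 and 0.27. With 15 arrays the lowest p of the list was that of Tnip1, which restrains NF-kB, at 0.33 ± 0.09 (SE; unadjusted p = 0.00105, adjusted p = 0.496), and with 17 Tnip1 was 0.21. Other probes of Ripk1 and Birc3 differed less with 17 arrays, at -0.06 and -0.04 for Ripk1 and 0.0082 for Birc3. Of that list 10 of 20 genes were higher and 10 lower.

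In the Il6 list 6 of 15 tested genes were higher and 9 lower. Stat3, the transcription factor that Il6 activates, was -0.18 ± 0.09 (SE; adjusted p = 0.676, limma), and Il11, a cytokine of the same family, was 0.43 ± 0.27 (SE) with 17 arrays and 0.0030 with 15. In the interleukin-1 list 7 of 17 were higher. Pycard, the inflammasome adaptor needed to activate Il1b and Il18, was 0.19 ± 0.11 (SE; adjusted p = 0.730) and 0.06 with 15 arrays. Its second probe was 0.33 ± 0.14 (SE; unadjusted p = 0.0317, adjusted p = 0.619) and 0.19 with 15 arrays.

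In the Il10 and Il15 list 5 of 12 genes were higher. Bcl2, a survival gene downstream of Il15, was -0.15 ± 0.08 (SE; adjusted p = 0.683, limma), and its other probes were -0.17 and 0.04. With 15 arrays these 3 values were -0.19, -0.10 and 0.06. In the TGF-beta list 13 of 21 were higher, led by the inhibitory Smad6 at 0.16 ± 0.08 (SE; adjusted p = 0.658) and by Smad4 at 0.17 ± 0.10 (SE; adjusted p = 0.712), which was 0.07 with 15 arrays and whose other probe was -0.08 with 17.

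Of 30 other cytokines only 10 were detected on enough arrays to be tested, and 10 were well above background on no array. Among the latter were Il5, Il17a, Il22 and Ifnb1. Tslp, an epithelial and stromal cytokine of type 2 immunity, had the lowest p, at 0.19 ± 0.08 (SE; unadjusted p = 0.0382, adjusted p = 0.633, limma) and 0.26 ± 0.08 (SE; adjusted p = 0.543) with 15 arrays. Il34, a ligand of the macrophage receptor Csf1r, was -0.18 ± 0.11 (SE; adjusted p = 0.728).

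Macrophages are a main source of Tnf and Il1b in obese fat, so the members were set beside the mean of 14 macrophage markers in each mouse. 13 of 14 markers were higher in HGI, with a median difference of 0.09 (0.16 with 15 arrays), and none was called after adjustment. The mean log2 ratio of the markers ran from -0.24 to 0.07 in LGI and from -0.37 to 0.55 in HGI. Over the 15 arrays, Tnf had r = 0.20 and Il10 r = 0.10 with this mean (permutation p = 0.475 and 0.712, adjusted over 8 probes 0.779 for Tnf), and rho = -0.06 and 0.18 (adjusted 0.875 for both).

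The clearest relations were negative. Il33 had r = -0.59 (permutation p = 0.0222, adjusted 0.177) and rho = -0.65 (permutation p = 0.00973, adjusted 0.0389). Mif had r = -0.42 (permutation p = 0.100, adjusted 0.343) and rho = -0.67 (permutation p = 0.00782, adjusted 0.0389). Without the 2 arrays farthest from the median of the marker mean, HGI 4 and LGI 2, r was -0.61 for Il33 and -0.50 for Mif.

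Over the 15 arrays only the rank correlations of Il33 and Mif passed after adjustment, and with 17 arrays the Il33 relation was weaker (r = -0.35, adjusted permutation p = 0.369; rho = -0.29, adjusted 0.403). For Mif with 17 arrays, r was -0.52 and rho -0.75 (adjusted permutation p = 0.236 and 0.00688). These values pool HGI 9 and HGI 10, which stood apart from the other arrays. On those 2 arrays Mif was 0.22 and 0.14 and the marker mean -0.37 and -0.19. The smaller p with 17 arrays is therefore not read as a stronger relation. Within the first and later scanned arrays r was -0.50 and -0.58 for Il33 and -0.36 and -0.49 for Mif. Within the diets it was -0.30 in LGI and -0.59 in the 7 HGI mice for Il33, and -0.46 and -0.21 for Mif. The sign was the same in each subset for Il33 and for Mif, and no exact permutation p of either gene in these subsets was under 0.05 after adjustment.

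Tgfb1 had r = 0.41 over 15 arrays (adjusted permutation p = 0.343; rho = 0.16, adjusted 0.875), which became -0.17 without HGI 4 and LGI 2 and so rested on those arrays. Il18 had r = -0.17, and the Il15 probes A_52_P15461 and A_52_P383066 had r = -0.07 and 0.13. The corresponding rho were -0.30, -0.07 and -0.05, and the smallest adjusted permutation p of these was 0.714.

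**Figure D4:**
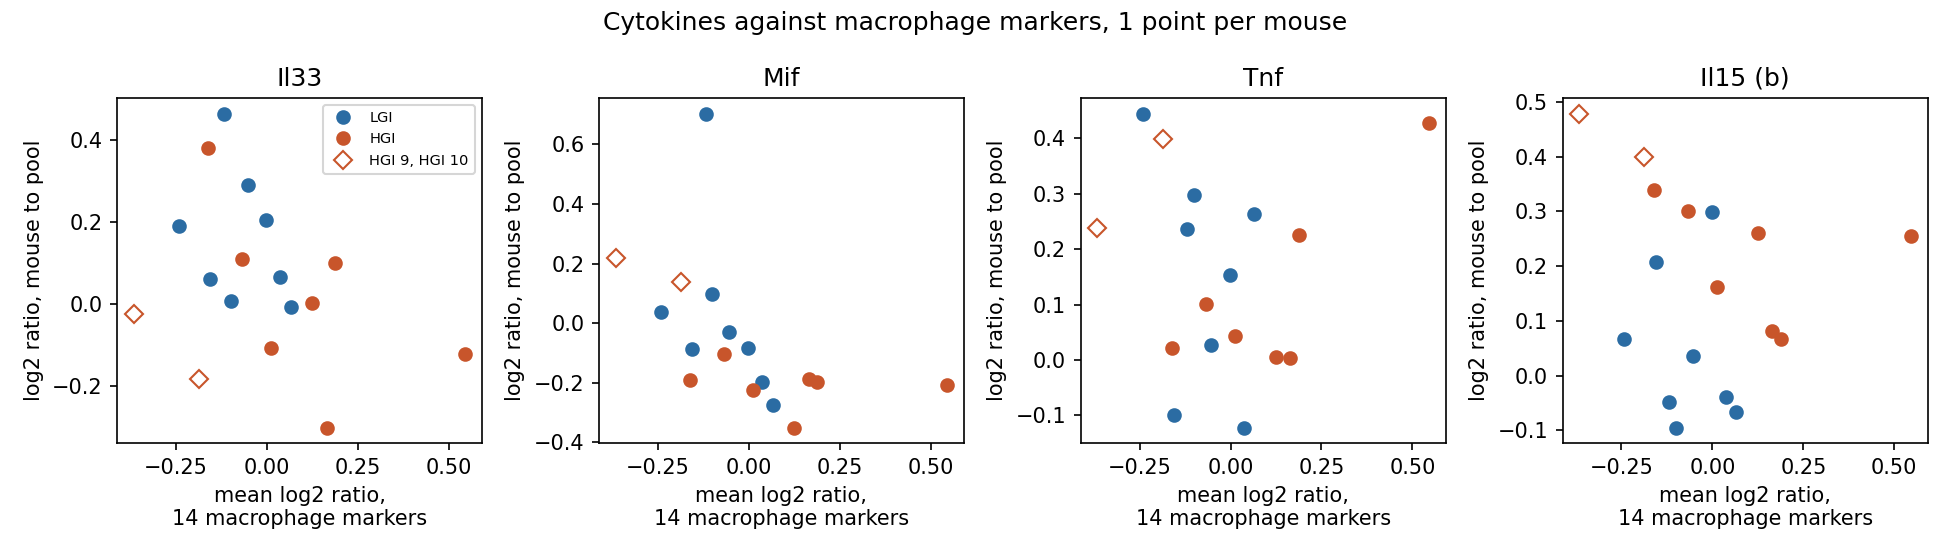
Log2 ratio of Il33, Mif, Tnf and Il15 (b), probe A_52_P383066, in each mouse (vertical axes) against the mean log2 ratio of 14 macrophage markers (horizontal axis), LGI in blue, HGI in orange and HGI 9 and HGI 10 as open diamonds. Il33 and Mif fall as the markers rise (rho = -0.65 and -0.67 over 15 arrays), and Tnf shows no such order (rho = -0.06).

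The genes whose ratios went most closely with each tested member over the 15 arrays were sought among 14303 other genes with a plain symbol. For Mif they were Gprasp2, Prm2 and Bex3, at r = 0.94 each, and without LGI 9 at 0.77, 0.71 and 0.69. For Il18 they were Gmeb1 (r = 0.91), Zfp983 (0.88) and Syf2 (0.88), and for Il15, by probe A_52_P383066, Pank1 (0.91), Smim10l2a (0.88) and Tpmt (0.88). For Il33 they were Piga (0.84), Slc15a2 (0.83) and Slc22a5 (0.82).

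For Tgfb1 the closest were Mtrf1 (0.89), Cyp2r1 (0.87) and Kifc1 (0.85), for Tnf Rgmb (0.83), Ifi214 (0.83) and Mad1l1 (0.82), and for Il10 H2al1n (0.86), Ankrd33 (0.85) and Fam71f1 (0.83). No member was among the closest genes of another. With all 17 arrays some of these values fell far, as for Tpmt, to 0.09, and Slc15a2, to 0.16. They are a description of 15 arrays, picked as the highest of many.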

How the data were processed

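The labels and file headers describe 17 2-colour Agilent arrays, 8 LGI and 9 HGI, with 500 ng of RNA a mouse in Cy5 and the pool in Cy3. The deposited files hold spot intensities from Agilent Feature Extraction, version 9.1.3.1 per the file headers and 9.5.1.1 per the submitters' processing notes. The authors also deposited log2 values of 19836 probes, with 5 member probes, whose normalization and centring no source used here gives; they served as an alternative.

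In limma 3.58.1 (R 4.3.3, data.table version 1.17.8) background was corrected by normexp (offset 50), ratios by loess, and spots of a probe were averaged. Of 43790 spots, 2256 controls were left out. No member spot was flagged. Probes with Cy5 well above background on 8 or more arrays were tested; lmFit and eBayes had no covariate. A gene is represented by its brightest tested probe. Gene names came from RefSeq (GRCm38.p6). Permutation tests used 100000 resamples, or all orders for 8 or fewer mice. Plots used Python 3.11.15 and matplotlib 3.10.9.

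On simulated data of 25295 probes with 200 changed, the 17-array fit recovered 83% of changes of 0.5 and 98% of changes of 1 (log2), and the 15-array fit 80% and 99.5%. The simulated noise was independent between probes and arrays, and the changes were added to ratios made with the offset. These rates therefore do not give the share of RNA changes that would be found for dim probes. Members, lists and tests were chosen with earlier results of these data known. The rule for named genes takes all members, the listed receptors, the 2 genes of each pathway list with the lowest p, and the 3 genes most like each tested member. Tnip1, Irak3, Lifr, the marker genes and absent cytokines named besides were chosen after their values were seen. Correlations within each diet were added after seeing the data.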

Additional observations from a re-analysis of the deposited data

Results flagged for a closer look

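Of 24 groups of values (12 probes in each diet), 5 had 1 mouse far from the others, where chance gives about 1 in 20. Il6 in HGI 10 was 0.63, with the next HGI mouse at 0.28, on a probe not well above background on any array. Il1rn in LGI 7 was 0.32 for probe A_51_P307166, with the next LGI mouse at -0.03, and 0.48 for probe A_52_P431159, with the next at 0.08, and neither probe was bright enough to be tested. Il10 in LGI 4 was 0.19, with the next LGI mouse at -0.05. Mif in LGI 9 was 0.70, with the next LGI mouse at 0.10. The causes were not tested.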

How the results depend on the processing

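Il15 (both probes), Il18, Il33 and Mif kept their sign in every setting of the 17-array fit, and no member was called in any of these (smallest adjusted p by limma 0.257, for Il15 probe A_52_P383066 without LGI 7). Apart from leaving out 1 array, the difference ranged from 0.08 to 0.33 for Il15 probe A_52_P383066, 0.08 to 0.85 for A_52_P15461 (0.85 with processed signals), -0.28 to -0.03 for Il18, -0.29 to -0.11 for Il33 and -0.25 to -0.03 for Mif. The count of called probes was 0 with 17 arrays and became 1 (lower) with the Cy5 channel alone or with array weights; leaving out 1 array gave 0 to 4, with 4 without LGI 7. With 15 arrays it became 1 with array weights, and leaving out 1 array gave 0 to 13, with 13 without HGI 7 and 2 without LGI 7. The causes were not tested.

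Members near 0 changed sign. Tnf was -0.032 without HGI 9 and HGI 10, -0.019 without LGI 9 too, -0.083 in the first scanned arrays, -0.13 with the scanner's processed signals, -0.012 with median centring, -0.073 with Cy5 alone and -0.0092 with array weights, and -0.026 to 0.055 leaving out 1 array. Il10 was 0.044 with Cy5 alone and -0.031 to 0.037 leaving out 1 array, and its lowest value in the other settings was -0.23. Tgfb1 was 0.032 without HGI 9 and HGI 10, 0.0088 without LGI 9 too, 0.092 in the first scanned arrays, 0.0096 in the deposited table and -0.076 to 0.018 leaving out 1 array.

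Replicate numbers did not pair the mice (correlations of same-numbered deviations -0.37 to 0.28). With the replicate block on the 14 arrays that share a number, and on those arrays without it, 0 probes were called and Tnf was -0.065, Il10 0.00061 and Tgfb1 0.013.

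The Il1rn gap of probe A_52_P431159 was 57.1 percentage points without HGI 9, HGI 10 and LGI 9 (exact p = 0.0699), and 62.5 to 75 leaving out 1 array. The Il15 probe A_52_P15461 gap in detection was -3.57 points without HGI 9 and HGI 10 and -7.94 to 12.5 leaving out 1 array. Other detection gaps leaving out 1 array were -15.9 to 0 for Tnf, -25 to -6.35 for Il1b, -14.3 to -12.5 for Il1rn probe A_51_P307166, -22.2 to 0 for Il10 and -12.5 to -11.1 for Tgfb1.

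Correlations with the macrophage mean changed sign as follows. In the first scanned arrays r was -0.28 for Tnf, 0.26 for Il15 probe A_52_P15461, -0.031 for A_52_P383066 and -0.10 for Tgfb1, and in the later ones -0.47 for Il10. With 17 arrays it was -0.067 for Il10, -0.20 for A_52_P383066 and 0.12 for Il18. In LGI alone it was -0.37 for Tnf, 0.52 for A_52_P15461 and -0.16 for A_52_P383066, and in HGI alone -0.30 for A_52_P383066 and 0.25 for Il18. In HGI alone A_52_P15461 had r = -0.87 and rho = -0.96 over 7 mice (exact adjusted permutation p = 0.0508 and 0.0222).

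Aquantile leaves log ratios unchanged by construction. At these sample sizes the median SE of a difference was 0.08, and 4 member probes were too dim for any level.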
